A study of Mus musculus with 36 samples.

Results

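The genes described here are multicopy families that mouse cells use in the 2-cell stage of the embryo, with Zfp352 added as a single gene. Members were all genes of the count table whose symbol begins with Zscan4, Usp17l, Tdpoz, Tcstv, Pramef, Pramel, Duxf or Rfpl4, plus Zfp352, with a count in any of 18 libraries. Of 39 symbols that matched, 36 were members, out of 37417 genes with a count. Copies were also summed per family, which gave 8 sums and Zfp352. The families were picked with results of these libraries already known, so their tests describe the libraries and are not independent evidence. Just inside the rule were Tdpoz2 with 2 counts over all 18 libraries, Pramel4 with 3, Tdpoz1 with 4, and Pramel3 and Rfpl4 with 10 each. Tdpoz5, Usp17le-ps and Pramel had no count and lay just outside.

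The study sequenced RNA of E14 mouse embryonic stem cells, here ESC, and of neural precursor cells, here NPC, made from them with retinoic acid (RA), to compare cells with and without the catalytic activity of MLL3 and MLL4. From each stage 3 genotypes are used here, with 3 libraries each: wild type (WT), MLL3/4 dCD and MLL2 dTAG. In MLL3/4 dCD, written dCD below, MLL3 and MLL4 are catalytically dead. In MLL2 dTAG, written MLL2dTAG, MLL2 carries a tag that lets the compound dTAG-13 direct its degradation. A line that combines dCD and MLL2dTAG was also sequenced at both stages and is not used here. All 6 groups, WT included, are labelled as treated with dTAG-13, so none of the comparisons isolates the compound, and no source used here gives its duration in ESC. For NPC it was added at 2 µM from day 1 of differentiation, with harvest on day 4. The ESC medium held serum replacement and LIF. The labels name no clones and do not say that replicates came from separate cultures, so p-values measure only the spread between these libraries, which may be technical, and genotype cannot be told apart from other differences between the lines.

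A small and changing share of mouse ESC enters a state that resembles the 2-cell embryo, in which the genome is first switched on. The transcription factor Dux, whose copies lie in a repeat array, activates Zscan4, Usp17l, Tcstv, Tdpoz, Zfp352 and the endogenous retrovirus MERVL in that state. Dppa2, Dppa4 and other factors act upstream of Dux, and chromatin repressors such as Trim28, Setdb1 and the CAF-1 histone chaperone keep the state rare. MLL2 is the methyltransferase that places trimethylation of histone H3 lysine 4 at many CpG-rich promoters, and MLL3 and MLL4 are known mainly for monomethylation at enhancers.

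In the GENCODE M21 annotation the 9 Zscan4 members lay within 0.82 Mb of chromosome 7 (10794242 to 11614112), and the 5 Usp17l members within 1.613 Mb of the same chromosome (103249737 to 104862667). Zscan4 genes encode SCAN and zinc finger proteins with a role in telomere maintenance, and Usp17l genes encode deubiquitinases. The 4 Tdpoz members, which encode proteins with TRAF and BTB/POZ domains, spanned 0.176 Mb of chromosome 3, and the 2 Tcstv members 0.425 Mb of chromosome 13. All 6 Pramef members lay within 0.996 Mb of chromosome 4. They encode leucine-rich repeat proteins of the PRAME family, as do the 6 Pramel members on chromosomes 2, 4 and X, and current RefSeq lists Pramef8 as Pramel12, Pramef12 as Pramel13, Pramef17 as Pramel14 and Pramef25 as Pramel16. Duxf3, a copy of Dux, was the only Duxf member, and Rfpl4, Rfpl4b and Zfp352 completed the set. Copies are so alike that reads may be assigned to the wrong one: of the 50-base words in the transcripts of a Zscan4 copy, 48.4% to 90.1% also occurred in another gene, with a median of 85.5%. The shares were 20.1% to 51.1% for Usp17l, 41.2% to 66.2% for Tdpoz, 63.6% for Pramef25, 73.5% for Pramef17 and 0 for Pramef8, Pramef12 and Pramel1. For Zscan4 and Usp17l most of this sharing was within the family, with 3.01% to 8.76% and 4.97% to 14.6% of words found in genes outside it. For the Tdpoz copies, Duxf3, Pramef6, Pramef17 and Pramef25 every shared word lay in genes outside the family as defined here, so a sum does not resolve those reads. Sums per family are the main values, and the values of single copies and of these families are uncertain. Zscan4a is annotated as an unprocessed pseudogene, and Pramef12os as an antisense gene within Pramef12.

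Promoter sequences are shown because the copies within Zscan4 and within Usp17l changed together in the counts. RefSeq windows on GRCm38.p6, from 250 bases before to 50 after the start, were matched for 24 of the 36 members. In the lines below, capitals mark TATAAA and TGATAGAATCA in the Zscan4 windows, TATAAA in Usp17lc, and every CG in Pramel1. The Usp17la window holds no TATAAA and is shown for comparison with Usp17lc. Zscan4c is at chr7:11005495-11005794 on the plus strand, Zscan4d at chr7:11166099-11166398 on the minus strand, Usp17la at chr7:104856766-104857065 and Usp17lc at chr7:103416446-103416745 on the plus strand, and Pramel1 at chr4:143394191-143394490 on the plus strand.
Zscan4c: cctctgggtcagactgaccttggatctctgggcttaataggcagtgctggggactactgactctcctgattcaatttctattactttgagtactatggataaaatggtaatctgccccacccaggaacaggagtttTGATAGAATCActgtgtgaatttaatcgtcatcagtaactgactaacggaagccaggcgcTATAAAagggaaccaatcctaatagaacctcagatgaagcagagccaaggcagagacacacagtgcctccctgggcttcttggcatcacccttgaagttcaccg
Zscan4d: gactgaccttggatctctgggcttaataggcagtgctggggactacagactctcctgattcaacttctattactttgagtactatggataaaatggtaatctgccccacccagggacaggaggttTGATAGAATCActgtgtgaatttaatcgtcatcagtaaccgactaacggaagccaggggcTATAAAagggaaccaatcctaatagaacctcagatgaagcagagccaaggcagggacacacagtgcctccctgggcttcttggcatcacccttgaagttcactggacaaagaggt
Usp17la: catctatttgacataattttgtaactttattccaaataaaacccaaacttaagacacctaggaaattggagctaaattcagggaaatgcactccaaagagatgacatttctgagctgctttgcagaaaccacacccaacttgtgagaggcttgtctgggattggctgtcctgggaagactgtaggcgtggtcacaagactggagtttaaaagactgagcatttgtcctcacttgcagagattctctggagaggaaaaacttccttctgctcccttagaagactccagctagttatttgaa
Usp17lc: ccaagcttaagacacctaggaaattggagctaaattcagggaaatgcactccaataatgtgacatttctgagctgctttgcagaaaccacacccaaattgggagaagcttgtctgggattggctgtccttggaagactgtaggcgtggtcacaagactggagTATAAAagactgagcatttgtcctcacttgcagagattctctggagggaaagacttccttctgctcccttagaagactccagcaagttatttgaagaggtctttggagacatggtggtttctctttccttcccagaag
Pramel1: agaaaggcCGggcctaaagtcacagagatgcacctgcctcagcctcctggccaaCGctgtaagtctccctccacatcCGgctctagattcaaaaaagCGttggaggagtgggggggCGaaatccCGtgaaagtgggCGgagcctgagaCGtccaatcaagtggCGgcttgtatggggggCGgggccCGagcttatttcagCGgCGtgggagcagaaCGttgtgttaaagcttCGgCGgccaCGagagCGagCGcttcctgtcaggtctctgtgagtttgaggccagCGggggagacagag

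The 4 Zscan4 windows were 95.3% to 99.3% identical over 6 pairs, and the 4 Usp17l windows 91.7% to 96.8%. CG dinucleotides were scarce in most member windows, with a median of 2 against 7 in all 32851 RefSeq windows, and 87.5% of member windows held at most 4 against 38.04% of all. Pramel1 held 20, Pramel3 held 9 and Pramef12 held 7. The motifs TATAAA and CCAAT were searched on both strands, as were longer patterns, of which the match TGATAGAATCA is described and the others are not reported. All were chosen after the windows had been seen. TATAAA occurred in all 4 Zscan4 windows and 3 of 4 Usp17l windows, in 33.33% of member windows and in 13.62% of all windows. CCAAT occurred in 70.83% of member windows and 37.41% of all. The word TGATAGAATCA (TGATTCTATCA on the other strand) was in all 4 Zscan4 windows and in 7 of all 32851 windows (0.0213%), those included. Copies share descent, so these windows are not independent of each other, and a match is no evidence of binding.

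Libraries held 19430860 to 46041277 counts and 23731 to 26730 genes with a count, and the 36 members took 942 to 10308 counts per library. Levels are in CPM, counts scaled to each library's total times its TMM factor, and the floor of 3 counts, used for a count of 0, is 0.0662 to 0.160 CPM in 1 library. Among counts from 1 to 10, 60.8% to 66.5% were even, against 48.9% to 50.4% of counts over 1000, so 2 counts may stand for 1 read pair and counting intervals are then too narrow. ESC markers summed to 2969 to 3236 CPM in WT ESC and 18.7 to 19.7 in WT NPC, and 7 neural progenitor markers to 64.6 to 72.9 and 155 to 158 CPM. Kmt2b RNA, which encodes MLL2, was 207 ± 6.5 CPM (SD, n = 3) in MLL2dTAG ESC and 212 ± 19 in WT ESC, and a degron acts on the protein, so RNA does not check it. Kmt2c and Kmt2d, which encode MLL3 and MLL4, were detected in all groups, and gene counts do not show the loss of catalytic activity. The MLL2dTAG line also differed from the others in Y-linked RNA: Eif2s3y was at 76.8 to 78.4 CPM in WT ESC, 2.24 to 3.44 in MLL2dTAG ESC and 0.104 to 0.132 in MLL2dTAG NPC, against 62.8 to 66.4 in WT NPC. The part of that difference in the results below was not tested.

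In WT ESC Pramef and Zscan4 had the highest sums. Zscan4 stood at 39.16, 41.74 and 38.08 CPM in the 3 libraries and Usp17l at 7.08, 8.98 and 6.42. Tdpoz was at 1.01, 0.60 and 0.48 CPM, Tcstv at 0.27, 0.27 and 0.71, Zfp352 at 0.96, 0.66 and 0.54, and Duxf at 0.32, 0.33 and 0.17. Rfpl4 had no count in WT ESC. Low levels here average over all cells of a culture, so fewer cells of a type and less RNA per cell cannot be told apart in any group. Per kb of exon, the highest Zscan4 copy in WT ESC was Zscan4a at 3.71 ± 0.38 CPM per kb (SD, n = 3), next to Zscan4d at 3.06 ± 0.12, and the lowest was Zscan4b at 0.87 ± 0.19. Of the 36 members, 27 passed the filter on low counts and 24 reached a mean of 1 CPM in at least 1 group. Those that did not pass were Pramel3, Pramel4, Pramel5, Pramel6, Pramef12os, Tdpoz1, Tdpoz2, Rfpl4 and Rfpl4b. A member can pass through the group in which it is high, so counts of members that passed are given as descriptions.

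**Figure D1:**
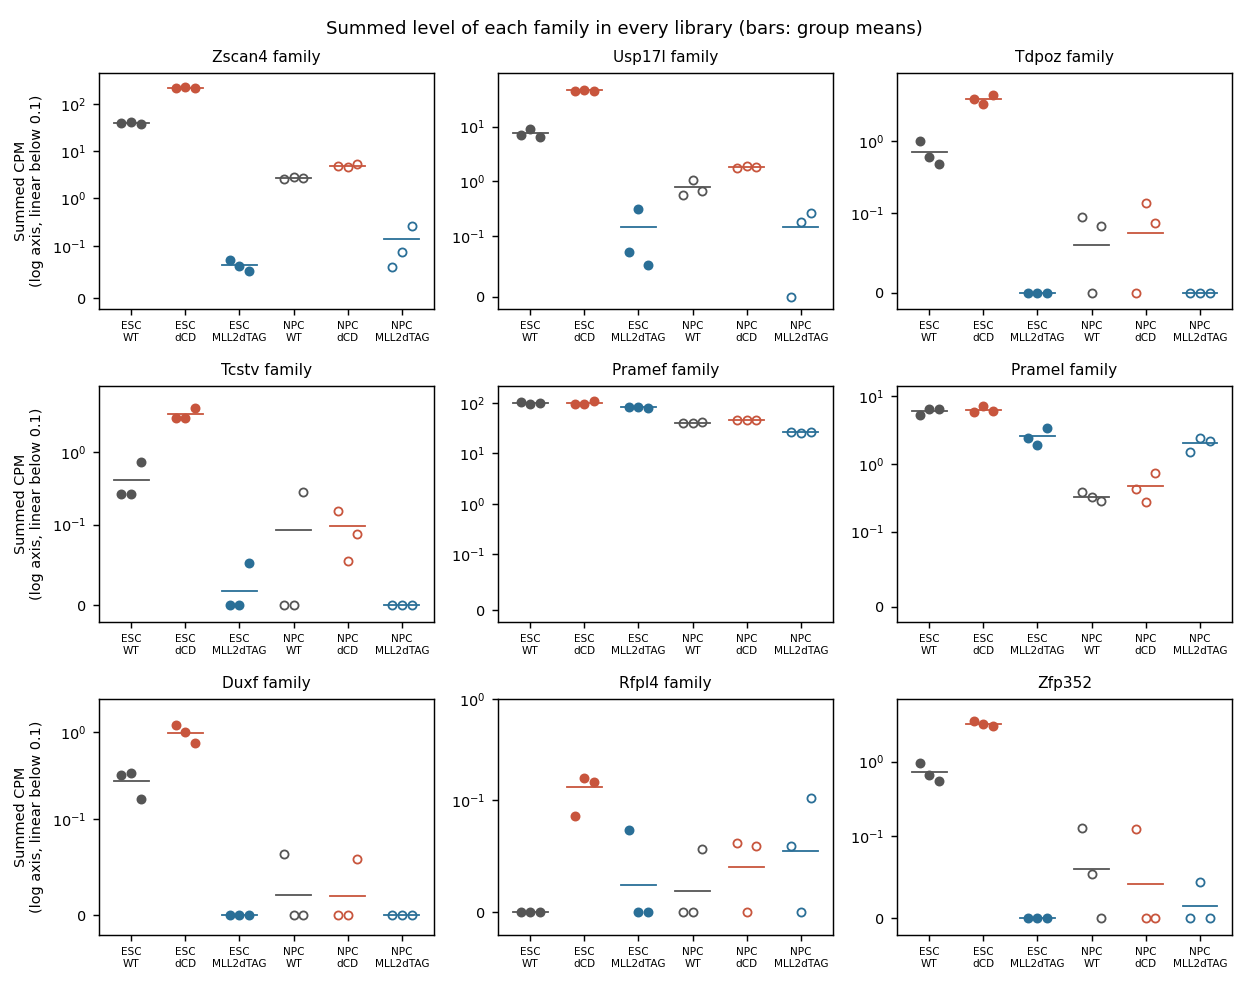
Summed level of each family in CPM (vertical log axis, linear below 0.1) in the 18 libraries, grouped by stage and genotype, with filled points for ESC, open points for NPC and bars for group means. In 6 panels (Zscan4, Usp17l, Tdpoz, Tcstv, Duxf and Zfp352) the dCD ESC libraries are highest and all WT ESC libraries lie above all MLL2dTAG ESC libraries, while Pramef and Pramel show other orders.

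ESC whose MLL3 and MLL4 lack catalytic activity had 3.61 to 7.62 times as much RNA of 6 families as WT ESC, by the ratio of summed counts scaled to library size, and the Pramef and Pramel sums did not pass the test. The highest of these ratios, for Tcstv, rests on 5, 8 and 21 counts in the WT libraries and was 12.4-fold without WT ESC replicate 3. The Zscan4 sum was 220.05, 220.93 and 212.95 CPM in dCD ESC. All 3 values were above the WT range, and the log2 change was 2.46 (SE 0.05, adjusted p = 5.83e-28, edgeR quasi-likelihood test with Benjamini-Hochberg adjustment over 20492 rows). Usp17l was at 44.37, 47.19 and 45.42 CPM, again with no overlap, a log2 change of 2.60 (SE 0.13, adjusted p = 5.56e-18). Tdpoz stood at 3.88, 3.31 and 4.40 CPM (log2 change 2.53, SE 0.38) and Tcstv at 2.94, 2.90 and 3.99 (2.93, SE 0.48). Zfp352, a zinc finger gene, was at 3.50, 3.19 and 3.06 CPM (2.20, SE 0.41). Duxf3, the upstream activator, was at 1.19, 0.99 and 0.75 CPM against 0.17 to 0.33 in WT, a log2 change of 1.84 (SE 0.56, adjusted p = 0.00736). For none of these 4 did a dCD value overlap the WT values, but the Duxf call rested on 21 and 72 counts and was lost without WT ESC replicate 3 (log2 change 1.57, adjusted p = 0.0597). Rfpl4, not tested, had 0 counts in WT ESC and 10 in dCD ESC, all from Rfpl4b, which is at least 3.51-fold higher against the floor of 3 counts over the group (2.16-fold without WT replicate 2, 2.19-fold without WT replicate 3).

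Among single copies, 23 of the 27 tested were called higher and 2 lower in dCD ESC, where 25.7% of all 20511 genes were called higher and 22.6% lower (48.3% in either direction). All 9 Zscan4 copies and all 5 Usp17l copies were higher. Their log2 changes ran from 2.05 (Zscan4-ps2) to 2.76 (Zscan4d) and from 1.91 to 2.98 (Usp17la). Zscan4d rose from 6.65, 7.09 and 7.13 to 45.1, 48.1 and 48.9 CPM, and its share of Zscan4 counts was 17.6% in WT and 21.8% in dCD ESC. Zscan4-ps1 held 8.92% and 6.90% of Zscan4 counts, and the 3 shares per group did not overlap for either copy. Per kb of exon, Zscan4d at 20.8 ± 0.90 CPM per kb and Zscan4a at 19.7 ± 0.60 (SD, n = 3) led the Zscan4 copies in dCD ESC. Within Usp17l, Usp17le led at 10.4 ± 0.61 CPM per kb, and Usp17ld was lowest at 1.51 ± 0.14. Both Tdpoz copies and both Tcstv copies that were tested were called higher, Tcstv1 from 10 and 36 counts, a call that was lost when any 1 of the 6 libraries was left out (adjusted p 0.0562 to 0.104).

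**Figure D2:**
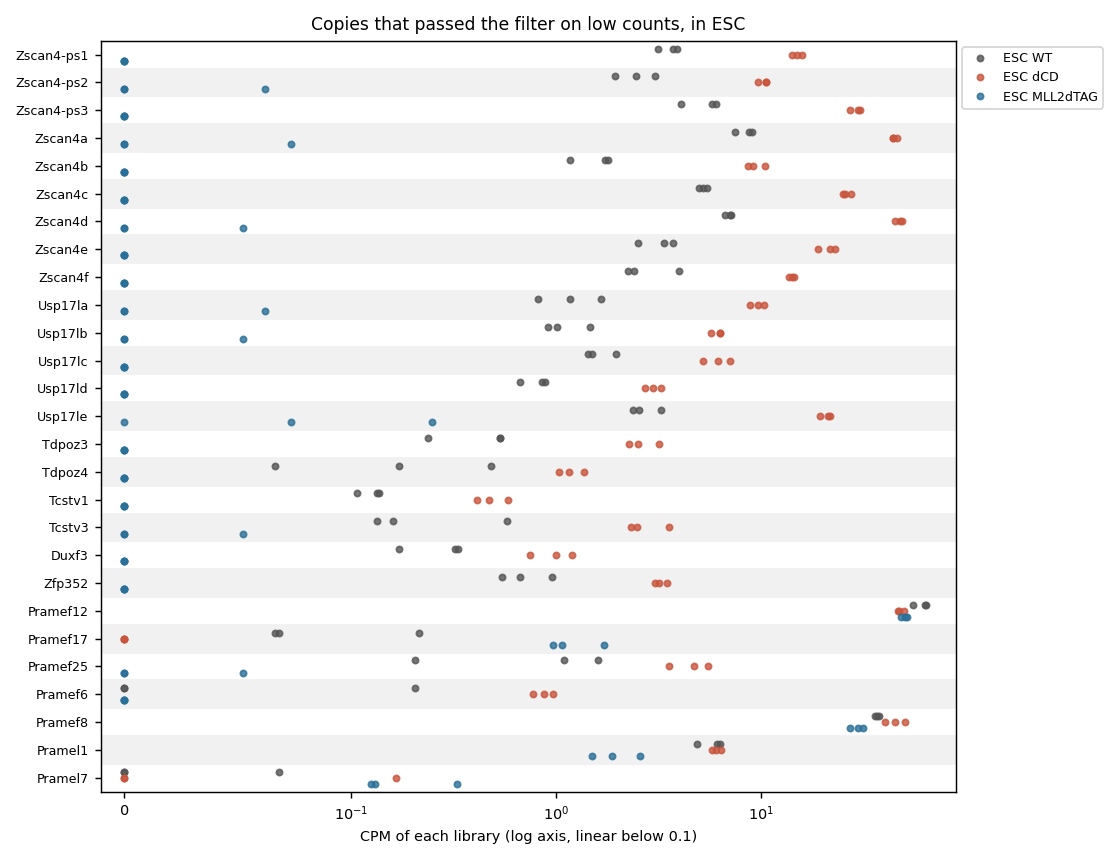
CPM of each library (horizontal log axis, linear below 0.1) for the 27 copies that passed the filter, in WT, dCD and MLL2dTAG ESC, 3 points per group. All Zscan4 and Usp17l copies lie in the order MLL2dTAG, WT, dCD without overlap; of the others, Pramef6, Pramef12, Pramef17, Pramel1 and Pramel7 do not.

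ESC of the MLL2dTAG line had almost no RNA of the same 6 families. Zscan4 fell to 0.07, 0.06 and 0.05 CPM, 2 counts in each library, against 3116 counts in the WT group. The ratio is 648-fold lower with an exact 95% counting interval of 298 to 1768, and the log2 change was -9.25 (SE 0.16, adjusted p = 7.64e-32). That SE is derived from the test statistic and, with 6 counts, is far narrower than the counting interval. Usp17l was at 0.07, 0.31 and 0.05 CPM, 14 counts in all and 52.9-fold lower (31.3 to 97.3), with a log2 change of -5.68 (SE 0.30). Of those 14 counts, 10 were on Usp17le and 10 were in replicate 2, without which the Usp17l sum was 124-fold lower. Tdpoz, Zfp352 and Duxf3 had no count in any MLL2dTAG ESC library. Against the floor of 3 counts over the group, that is at least 21.2-fold lower for Tdpoz, 22.5-fold for Zfp352 and 8.74-fold for Duxf3. Limits of the exact 95% counting intervals were 16.6-fold, 17.7-fold and 6.50-fold. Without MLL2dTAG replicate 3, the deepest of the ESC libraries, the floor values were 12.9-fold, 13.7-fold and 5.32-fold. Tcstv had 2 counts against 34, a ratio of 21.2-fold lower (5.44 to 182), which was 13.0-fold without WT replicate 3 and at least 8.61-fold without MLL2dTAG replicate 3, which held both counts. No WT library overlapped an MLL2dTAG library in any of these 6 families. The Pramef and Pramel sums were also lower, by far less, at log2 changes of -0.29 (SE 0.05) and -1.24 (SE 0.20), and all 8 tested sums were called. The Pramel call rests on Pramel1, without which the change was 1.01 (adjusted p = 0.119), not called. The Pramef call rests on Pramef8 and Pramef12, each called lower by itself (log2 changes -0.33 and -0.28). Without Pramef8, Pramef12 and Pramef12os the Pramef change was 0.20 (adjusted p = 0.64), not called. Of the 27 copies, 24 were called lower and 2 higher (28.2% and 28.7% of all genes, 56.9% in either direction). The 2 higher were Pramef17 and Pramel7.

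Set directly against each other in ESC, dCD and MLL2dTAG differed in all 8 sums, each higher in dCD, where 47.1% of all rows of the table with sums were called. The Pramef and Pramel calls ended without the most abundant copy. Without Pramef8, which leaves mostly Pramef12, the Pramef difference was 0.06 (adjusted p = 0.455). Without Pramel1 the Pramel difference was -1.01 (adjusted p = 0.136). By themselves, Pramef8, Pramef6 and Pramef25 were called higher in dCD (log2 differences 0.63, 7.81 and 7.57). Pramef17 was called lower (-8.32) and Pramef12 was not called. Of single copies, 24 were called higher in dCD and 1 lower, where 23.7% of all genes were called higher and 23.4% lower (47.2% in either direction). The Zscan4 sum was 3552-fold higher in dCD than in MLL2dTAG ESC (1632 to 9680, counting error only). For Usp17l the ratio was 319-fold (190 to 584), and 749-fold without MLL2dTAG replicate 2. Tdpoz, Zfp352 and Duxf3, with no count in MLL2dTAG ESC, were at least 127-fold, 106-fold and 31.6-fold higher, or 77.1-fold, 64.3-fold and 19.2-fold without MLL2dTAG replicate 3. The WT group is common to the earlier comparisons of each line, whereas these ratios do not use it.

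On differentiation of WT cells to NPC, all 8 tested sums were lower, and 24 of 27 copies were called lower and the other 3 were not called, against 40.4% of all genes called lower and 79.5% called in either direction. Zscan4 stood at 2.56, 2.85 and 2.71 CPM in WT NPC, 14.6-fold below ESC (13.0 to 16.6), with a log2 change of -3.87 (SE 0.08). Usp17l was at 0.57, 1.06 and 0.67 CPM (-3.27, SE 0.21). Zscan4 RNA was thus detected in all 3 WT NPC libraries, with 81, 107 and 97 counts, at a stage where the 7 ESC markers summed to 18.7 to 19.7 CPM. Tdpoz, Tcstv, Zfp352 and Duxf3 had 6, 10, 6 and 2 counts over the 3 libraries. The Tcstv call (34 counts in ESC, 10 in NPC) was lost without ESC replicate 3 (log2 change -1.44, adjusted p = 0.123), without NPC replicate 2 (-1.52, 0.0525) and with DESeq2 (-2.13, 0.0768).

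The dCD line kept more Zscan4 and Usp17l RNA than WT in NPC too, with a smaller fold than in ESC. Zscan4 was at 4.84, 4.55 and 5.36 CPM in dCD NPC, above all WT NPC values, a log2 change of 0.86 (SE 0.11, adjusted p = 3.55e-08). Usp17l was at 1.72, 1.90 and 1.82 CPM, also above all WT values, a log2 change of 1.22 (SE 0.26, adjusted p = 0.000137). The change in NPC minus the change in ESC was -1.60 (SE 0.13, adjusted p = 1.37e-12) for Zscan4 and -1.38 (SE 0.31, adjusted p = 0.00038) for Usp17l. In that interaction 8 copies were called lower and 1 (Pramef12) higher, where 42.9% of all genes were called in either direction (43% in the table with sums). Tdpoz, with 6 counts in WT and 8 in dCD NPC, Tcstv with 10 and 10, Zfp352 with 6 and 4 and Duxf3 with 2 and 2 were not called. Without WT NPC replicate 3, which held all 10 WT counts, Tcstv was called higher in dCD (adjusted p = 0.0226). The Pramef sum was higher in dCD NPC by 0.18 (SE 0.05, adjusted p = 0.0024). By itself Pramef12 was called (0.65, SE 0.09), and Pramef8, with 80.6% of Pramef counts there, was not (0.08, SE 0.06). Without Pramef8 and Pramef12 the Pramef change was 0.50 (adjusted p = 0.525), not called. Of single copies, 6 of 27 were called higher and the other 21 were not called, where 26.7% of all genes were called higher and 53.5% in either direction, so the share of copies called was below that of all genes. They were Zscan4a, Zscan4d, Usp17la, Usp17lb, Usp17le and Pramef12. Without WT NPC replicate 1 the number was 3. Zscan4a, the copy with no count in that library, then had a log2 change of 0.63 (adjusted p = 0.109) instead of 1.15. Zscan4d and Pramef12 were called whichever single library was left out.

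**Figure D3:**
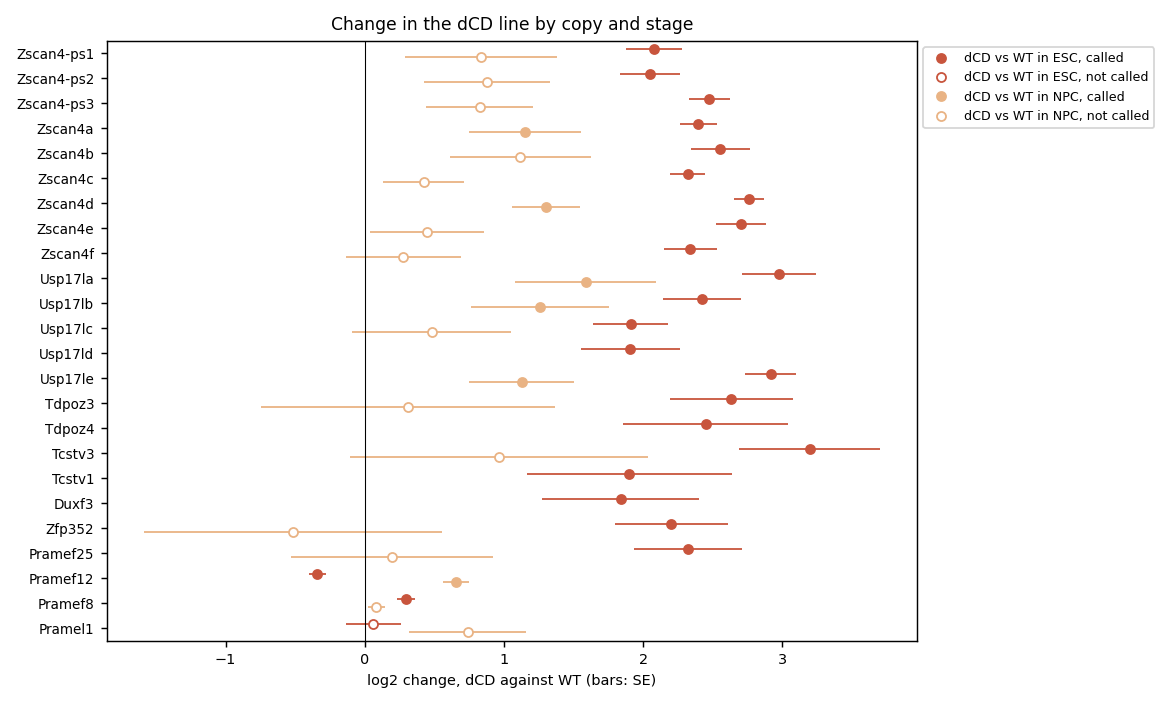
Log2 change of dCD against WT by copy, in ESC (red) and NPC (orange), filled where called and open where not. The horizontal axis is the log2 change, and bars are SE derived from the test statistic. NPC points are left out where either group had 3 counts or fewer. The Zscan4 copies lie between 2.05 and 2.76 in ESC and between 0.28 and 1.30 in NPC, and Pramef12 is below 0 in ESC and above 0 in NPC.

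In NPC of the MLL2dTAG line Zscan4 was at 0.06, 0.09 and 0.26 CPM, 16 counts against 285 in WT, 19.9-fold lower (12.1 to 35.3) and 35.8-fold lower without MLL2dTAG replicate 3, which held 10 of the 16, with a log2 change of -4.28 (SE 0.24, adjusted p = 1.43e-17). Usp17l was at 0, 0.18 and 0.26 CPM, 18 counts against 82 and 5.09-fold lower (3.03 to 9.02; 7.72-fold without MLL2dTAG replicate 3), with a log2 change of -2.32 (SE 0.43). Neither family overlapped WT NPC. Tdpoz and Tcstv had no count, at least 2.24-fold and 3.73-fold below WT. Without MLL2dTAG replicate 2 these bounds were 1.37-fold and 2.29-fold, and without WT replicate 2 they were 3.48-fold and 5.803-fold. Without WT replicate 1 or 3, Tdpoz had 3 WT counts left, at the floor, so it had no bound. Tcstv had none without WT replicate 3, which held all 10 WT counts. Tdpoz and Tcstv were both called, but the Tcstv call ended without that library. The Tdpoz call ended without any 1 of 5 of the 6 libraries (adjusted p 0.0585 to 0.0887). Zfp352 (2 against 6 counts, log2 change -1.56, SE 1.20) and Duxf3 (0 against 2) were not called. The Pramef sum was lower in MLL2dTAG NPC, with a log2 change of -0.64 (SE 0.05, adjusted p = 2.78e-13). Without Pramef8 the Pramef change was called in the other direction, at 0.33 (adjusted p = 0.00315). Of the copies, 14 were called lower and 3 higher, where 28.4% of all genes were called lower and 33.3% higher (61.7% in either direction). All 9 Zscan4 copies were among the 14. The change in NPC minus the change in ESC was 4.97 (SE 0.64) for Zscan4 and 3.36 (SE 0.74) for Usp17l, so the fold was smaller in NPC, where WT also has fewer counts. In that interaction 10 copies were called higher and 1 (Pramef8) lower, where 26.4% of all genes were called higher and 49% in either direction. Set against each other in NPC, dCD was higher than MLL2dTAG in 18 copies and lower in 2, against 24.3% and 31.6% of all genes (55.9% in either direction). The Pramef sum was higher in dCD by 0.81 (SE 0.05), but lower without Pramef8 and Pramef12 (-1.20, adjusted p = 0.0315).

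Pramef and Pramel did not move as single families. Most Pramef counts came from Pramef8 and Pramef12, which held 37.4% and 61.3% of them in WT ESC and 86.0% and 13.6% in WT NPC. Pramef8 was at 36.8, 37.9 and 36.3 CPM in WT ESC and 34.4, 35.0 and 35.7 in WT NPC, a change that was not called (log2 change -0.08, SE 0.06). It was highest in dCD ESC, at 40.3, 45.3 and 50.5 CPM (0.30, SE 0.06), and lowest in MLL2dTAG NPC, at 20.1, 18.2 and 19.1 (-0.88, SE 0.07). Pramef12 behaved otherwise, with 64.3, 55.7 and 63.4 CPM in WT ESC and 5.85, 5.08 and 5.75 in WT NPC (-3.46, SE 0.08). Its change in dCD was -0.34 (SE 0.06) in ESC and 0.65 (SE 0.09) in NPC, and the difference between stages was 1.00 (SE 0.11, adjusted p = 2.93e-09). For Pramef12, the MLL2dTAG change in NPC of 0.27 (SE 0.10) lost its call without WT replicate 2 or without MLL2dTAG replicate 2 or 3 (adjusted p 0.0641 to 0.107).

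Pramef25 and Pramef6, minor copies by counts, were highest in dCD ESC. Pramef25 was at 1.60, 1.09 and 0.20 CPM in WT ESC, 4.69, 3.56 and 5.51 in dCD ESC (log2 change 2.32, SE 0.39, adjusted p = 6.47e-06), and had 2 counts in MLL2dTAG ESC against 69, a ratio of 43.1-fold lower (11.5 to 363), or at least 17.5-fold without MLL2dTAG replicate 3, which held both. It was the copy with 0.89% of Pramef counts in WT ESC and 4.65% in dCD ESC. Pramef6 had 6 counts in WT ESC, all in replicate 3, 65 in dCD ESC (11.4-fold higher, 4.97 to 32.2, and 7.02-fold without WT replicate 2) and 0 in MLL2dTAG ESC, where the change from WT was not called (adjusted p = 0.0546), but was called when WT replicate 1 or 2 was left out. Summed without Pramef8, Pramef12 and the antisense Pramef12os, a choice made after these values were seen, the Pramef log2 change in dCD ESC was 2.32 (adjusted p = 4.37e-08), against -0.00 for the whole sum. Without Pramef8 alone, which leaves mostly Pramef12, the change was called in the other direction, at -0.21 (adjusted p = 0.0037).

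Pramef17 had the opposite pattern. It was at 0.21, 0.07 and 0.07 CPM in WT ESC, had no count in dCD ESC, and was at 1.72, 0.96 and 1.07 CPM in MLL2dTAG ESC. MLL2dTAG was 11.9-fold above WT (5.86 to 28.2; log2 change 3.53, SE 0.58, adjusted p = 5.62e-06), with no overlap, and 18.1-fold without WT replicate 1. In NPC it had no count in WT or dCD and 0.36, 0.57 and 0.47 CPM in MLL2dTAG, at least 16.7-fold higher (at least 10.7-fold when WT replicate 2 or 3 was left out). Its call in dCD ESC, 0 counts against 8, was lost without WT ESC replicate 1.

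Among Pramel genes, Pramel1 held 95.3% of the counts in WT ESC. Its levels were 4.90, 6.33 and 6.08 CPM in WT ESC, 5.76, 6.42 and 6.04 in dCD ESC and 1.87, 1.49 and 2.56 in MLL2dTAG ESC. The dCD values overlapped WT (log2 change 0.06, SE 0.20) and the MLL2dTAG values did not (-1.54, SE 0.21, adjusted p = 1.29e-07). Pramel7, a gene of naive ESC whose protein promotes degradation of UHRF1, had 2 counts in WT NPC, none in dCD NPC and 39, 76 and 75 in MLL2dTAG NPC, a ratio of 85.0-fold over WT (23.2 to 707). With 2 WT counts it was 54.6-fold without WT replicate 2, 56.0-fold without WT replicate 3 and at least 39.6-fold without WT replicate 1, which held both. It made up 78.5% of Pramel counts in MLL2dTAG NPC, where the Pramel sum was 1.51, 2.38 and 2.16 CPM against 0.28 to 0.38 in WT NPC (log2 change 2.64, SE 0.30, adjusted p = 1.05e-09). ESC markers were also higher there, at 126 to 132 CPM summed over 7 genes against 18.7 to 19.7 in WT NPC. All 7 were called higher, where 33.3% of all genes were called higher and 61.7% in either direction. The part of these markers in the Pramel change was not tested. In ESC, Pramel7 was called higher in MLL2dTAG from 18 counts against 2 (7.21-fold, 1.73 to 64.1; 4.44-fold without WT replicate 2 and at least 3.002-fold without WT replicate 3), and the call was lost without WT replicate 1 or 2 or MLL2dTAG replicate 1 (adjusted p 0.0741 to 0.132).

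Genes of the 2-cell state outside the member families were taken from a list of 36, of which 35 were in the table and 23 passed the filter. In dCD ESC, 18 of the 23 were called higher and 1 lower (25.7% and 22.6% of all genes), with a median log2 change of 1.51 against 0.02 over all genes tested. Those at least 2-fold higher were Sp110, Ubtfl1, Gm2016, Spz1, Gm5662, Arg2, Kdm4dl, Gm8300, Gm21319, Gm4027, BB287469, AF067061, Gm4340, Tmem92, Gm20767, Gm12794 and B020004J07Rik, with log2 changes of 1.02 to 2.74. The Spz1 call was lost without WT replicate 2 or 3 or dCD replicate 2, and the BB287469 call without WT replicate 1 or 2 or dCD replicate 2. Gm12794 and B020004J07Rik carry Pramel symbols in current RefSeq. Tmem92 rose from 3.03, 2.45 and 2.79 to 14.0, 12.1 and 13.7 CPM and had no count in MLL2dTAG ESC. In MLL2dTAG ESC, 21 of the 23 were called lower and 1 higher (28.2% and 28.7% of all genes), and 11 of the 35 genes in the table had any count there, against 25 in WT ESC.

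Dppa3, a maternal-effect gene also expressed in naive ESC, went against the list. It was at 18.4, 13.4 and 19.2 CPM in WT ESC, 6.14, 7.58 and 6.41 in dCD ESC (log2 change -1.33, SE 0.14) and 7.29, 6.89 and 6.73 in MLL2dTAG ESC (-1.28, SE 0.13). Both lines were below every WT library. Zfp809, which is on the list and also encodes a repressor of retroviral elements, was the 1 gene called higher in MLL2dTAG ESC (1.04, SE 0.04). In NPC, 3 of the 23 were called higher and 2 lower in dCD, where 53.5% of all genes were called in either direction, and 1 higher and 12 lower in MLL2dTAG, where 61.7% were. The dCD calls of at least 2-fold in NPC were Kdm4dl (2.01), Ddit4l (1.26) and Gm5662 (-1.41). The Kdm4dl call was lost without dCD NPC replicate 3, and the Gm5662 call without replicate 1 or 3 of either group. From WT ESC to WT NPC, 21 were called lower (40.4% of all genes) and 2 not called.

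**Figure D4:**
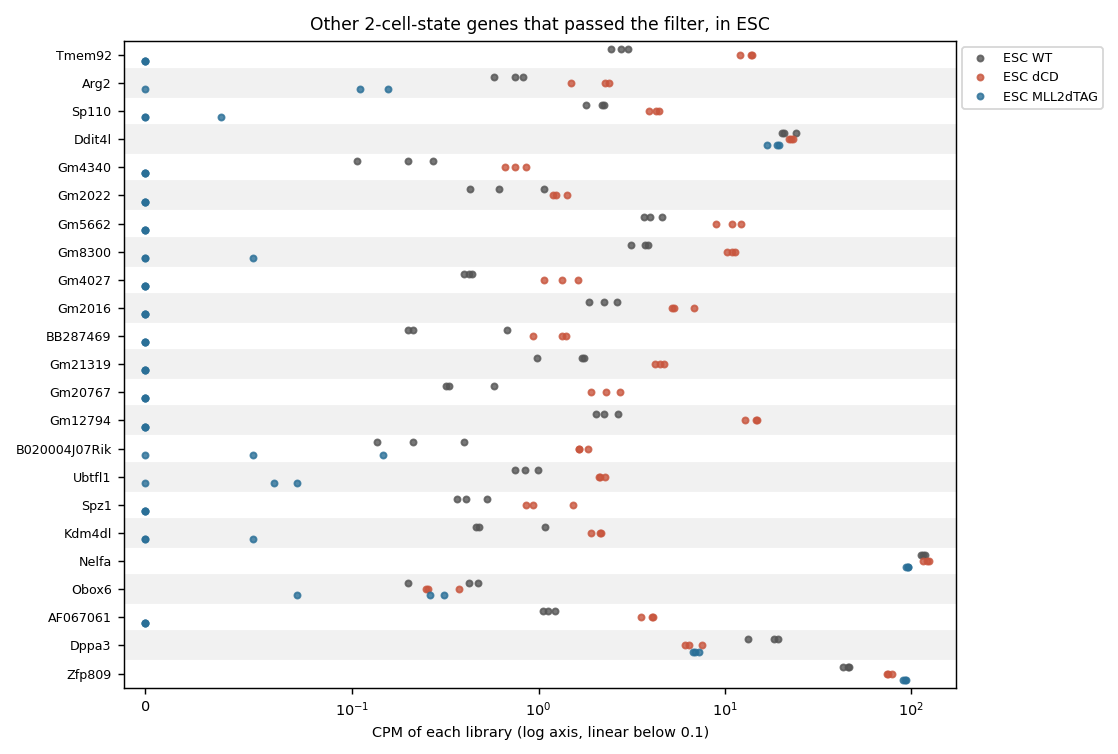
CPM of each library (horizontal log axis, linear below 0.1) for the 23 other 2-cell-state genes that passed the filter, in WT, dCD and MLL2dTAG ESC, 3 points per group. Ddit4l, B020004J07Rik, Nelfa, Obox6, Dppa3 and Zfp809 apart, the genes lie in the order MLL2dTAG, WT, dCD without overlap; Dppa3 is highest and Zfp809 lowest in WT.

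Most genes known to activate Dux or the 2-cell state were higher in both lines in ESC. Of 7 in the table, 5 were called higher and 2 not called in dCD ESC, and 6 were called higher and 1 lower in MLL2dTAG ESC, where 25.7% and 28.7% of all genes were called higher. Dppa2, a DNA-binding activator of Dux, was at 34.6, 29.7 and 32.7 CPM in WT ESC, 60.9, 69.5 and 65.2 in dCD ESC (log2 change 1.02, SE 0.06) and 83.7, 85.2 and 83.8 in MLL2dTAG ESC (1.39, SE 0.06). Its partner Dppa4 was at 112 ± 6.7, 112 ± 2.6 and 125 ± 1.8 CPM (SD, n = 3 each), with a change of 0.01 (SE 0.05) in dCD and 0.17 (SE 0.05) in MLL2dTAG. Tbx3 rose by 0.62 (SE 0.04) and 1.26 (SE 0.04). The activator called lower in MLL2dTAG ESC was Nelfa (-0.28, SE 0.04). In NPC, Dppa2 was higher by 3.53 (SE 0.13) in dCD and 3.39 (SE 0.13) in MLL2dTAG, from a WT level of 0.83 ± 0.20 CPM, and Dppa4 by 1.59 (SE 0.11) and 2.29 (SE 0.10).

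Of 36 repressors, 13 were called higher and 11 lower in dCD ESC, and 11 and 11 in MLL2dTAG ESC, with medians of 0.04 and -0.02, where 48.3% and 56.9% of all genes were called in either direction. Trim28, the KAP1 corepressor, changed by 0.30 (SE 0.03) in dCD and 0.20 (SE 0.03) in MLL2dTAG ESC. Setdb1, the H3K9 methyltransferase that acts with it, did not pass the test in either (0.05 and 0.02, SE 0.04 each). Of the CAF-1 subunits, Chaf1a rose by 0.17 and 0.22 and Chaf1b fell by 0.36 and 0.52 (SE 0.04 each). Changes of 2-fold or more were Myc in both lines (2.06 and 2.43) and, in MLL2dTAG, Zfp809 and Dnmt1. Dnmt1, the maintenance DNA methyltransferase, was at 544 ± 14 CPM in WT, 477 ± 8.2 in dCD (-0.19, SE 0.03) and 249 ± 3.6 in MLL2dTAG ESC (-1.13, SE 0.03). In NPC, 8 repressors were called higher and 20 lower in dCD, and 16 and 11 in MLL2dTAG, against 53.5% and 61.7% of all genes in either direction. Myc, at 1.27 and 1.15, was the repressor with a change of 2-fold or more there.

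**Figure D5:**
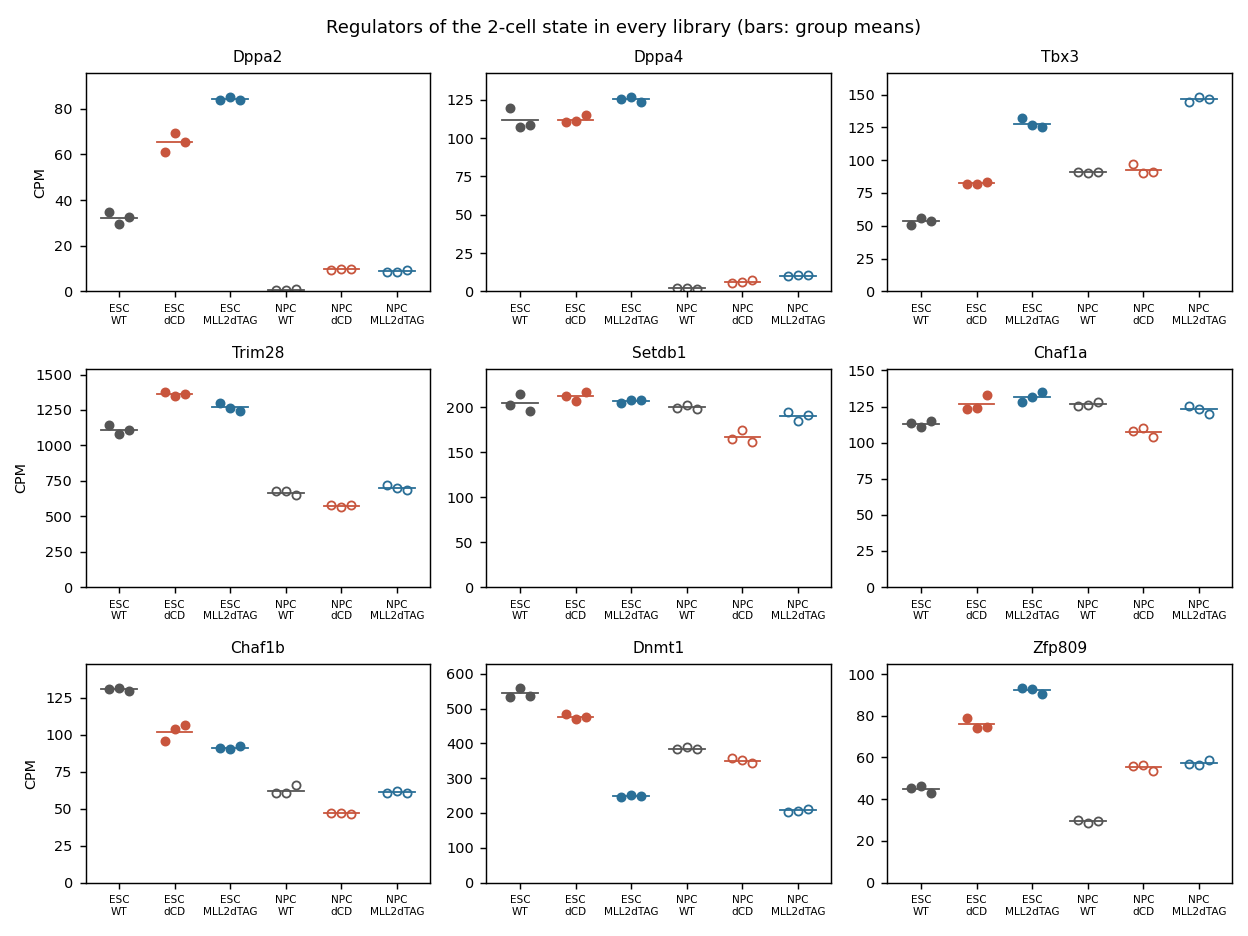
CPM (vertical axes, linear from 0) of 9 regulators in the 18 libraries, by stage and genotype, with bars for group means. Dppa2, Tbx3 and Zfp809 are higher in both dCD and MLL2dTAG ESC than in WT ESC, and Dnmt1 is lowest in the MLL2dTAG groups.

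Markers of other cell types moved in part with the genotypes. Germ cell markers, since several member families are also known from germ cells, summed to 124 to 138 CPM over 11 genes in WT ESC, 122 to 128 in dCD ESC and 36.7 to 44.1 in MLL2dTAG ESC, and Oosp1 was at 0 in all 3. Mesenchyme markers, 4 genes, summed to 437 to 548 CPM in WT, 686 to 767 in dCD and 768 to 821 in MLL2dTAG ESC, and all 4 were called higher in both lines. Trophoblast markers, 5 genes, were at 21.2 to 25.5, 29.0 to 31.8 and 12.1 to 12.9 CPM. In MLL2dTAG ESC 2 of them were called higher and 1 lower. Their median log2 change there was 0.56, so most did not share the lower sum. Endoderm markers, 5 genes, were at 13.6 to 15.4, 9.80 to 10.8 and 26.3 to 29.2, with 2 called higher and 1 lower in MLL2dTAG ESC. Of all genes, 28.7% were called higher and 28.2% lower in that comparison. ESC markers were at 2897 to 3027 CPM in dCD and 3484 to 3679 in MLL2dTAG ESC. In NPC, neural progenitor markers summed to 155 to 158 CPM in WT, 332 to 368 in dCD and 214 to 216 in MLL2dTAG. Of the 7, 5 were called higher in dCD, and 3 were called higher and 2 lower in MLL2dTAG. Of all genes, 53.5% and 61.7% were called in either direction in these comparisons. Endoderm markers in NPC were at 202 to 211, 175 to 183 and 498 to 510 CPM, and all 5 were called higher in MLL2dTAG. Germ cell markers in NPC were at 58.3 to 59.6 CPM in WT, 85.9 to 88.0 in dCD and 39.2 to 45.4 in MLL2dTAG, with Figla at 0 in WT, Nobox in dCD, and Figla, Zp3 and Oosp1 in MLL2dTAG. In MLL2dTAG NPC 3 of the 8 germ cell markers tested were called higher and 5 lower. Mesenchyme markers in NPC were at 622 to 638, 803 to 891 and 868 to 881 CPM, and trophoblast markers at 162 to 167, 166 to 181 and 135 to 147. All 4 mesenchyme markers were called higher in dCD NPC. In MLL2dTAG NPC 2 were called higher and 2 lower, with a median log2 change of -0.03. Of the trophoblast markers, 2 were called higher and 1 lower in dCD NPC, and 2 and 2 in MLL2dTAG NPC. The part of these markers in the family changes was not tested.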

How the data were processed

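Poly(A) RNA was sequenced with a stranded mRNA kit, per the labels' protocols, and the authors deposited whole-number counts, not normalized, by gene symbol. HTSeq is named without a version in the submitters' processing notes; no source used here gives the aligner, the build or the strand setting. Of the deposited columns, 18 were used (6 groups of 3) and 18 others were not, because their names fit no single sample or they belong to another set of libraries. Counts were scaled with TMM, filtered with filterByExpr and tested with edgeR 4.0.16 (quasi-likelihood F test, 6 groups, 20511 genes, Benjamini-Hochberg adjustment, threshold 0.05) in R 4.3.3; family sums replaced their copies in a second fit of 20492 rows. Called means past that threshold. SE is the absolute log2 change divided by the square root of the F statistic, not a standard error from the fit. Where counts are near 0 it is not a guide to precision. CPM was computed from the deposited counts and each library's total times its TMM factor. Count ratios have exact conditional 95% intervals, which cover counting error only. Folds given as at least put the floor of 3 counts in place of 0 and are not confidence limits. Alternatives were DESeq2 1.42.0, limma 3.58.1, other scalings and filters, halved counts, fewer groups, a replicate block and leaving out each library. Members with a mean of at least 1 CPM in a group could be named; others were named after their values were seen. Members and lists were chosen with earlier results of these data known.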

Additional observations from a re-analysis of the deposited data

Results flagged for a closer look

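In 9 cases a line's difference from WT was not the same at both stages (NPC value minus ESC value) by the interaction term of the edgeR quasi-likelihood fit, with Benjamini-Hochberg adjustment. For dCD, this difference was -1.60 (SE 0.13) for Zscan4, -1.38 (SE 0.31) for Usp17l, -2.89 (SE 1.08) for Tcstv and 0.18 (SE 0.07) for Pramef. Of all rows, 43% were called for this interaction and 49% for the MLL2dTAG interaction. The Tcstv value rests on 10 counts in each NPC group, and without WT NPC replicate 3, which held all of those in WT, it was 1.76 (adjusted p = 0.412). The Tcstv call was also lost without dCD ESC replicate 3 or dCD NPC replicate 2 or 3 (adjusted p 0.0521 to 0.0686), without Tcstv3 (0.0827) and with DESeq2 (0.133). The Pramef call was lost without any 1 of 7 of the 12 libraries (adjusted p 0.0556 to 0.117). For MLL2dTAG, the difference was 4.97 (SE 0.64) for Zscan4, 3.36 (SE 0.74) for Usp17l, -0.34 (SE 0.07) for Pramef and 3.88 (SE 0.35) for Pramel. For Zfp352 it was 5.94 (SE 2.41, adjusted p = 0.0407), a fitted value that depends on the prior count, since MLL2dTAG had 0 counts in ESC and 2 in NPC. The Zfp352 call was lost without any 1 of 6 of the 12 libraries (adjusted p 0.0518 to 1) and with halved counts (0.0784). Both Pramef values changed sign in sums without Pramef8, Pramef12 and Pramef12os (-1.82 for dCD, 1.502 for MLL2dTAG). Their parts by stage are given with each comparison, and WT libraries are shared by both contrasts.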

How the results depend on the processing

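Of 1230 family values under the alternatives, 1172 kept their side of the threshold, and their direction where called. Without a reversed sign, 40 lost a call and 7 gained one. The remaining 11 reversed sign with a call before or after, and some of these also lost or gained a call. Leaving out 1 library at a time, copies called numbered 23 to 24 for dCD against WT in ESC, 25 to 26 for MLL2dTAG against WT in ESC, 25 to 27 for dCD against MLL2dTAG in ESC, 3 to 8, 16 to 17 and 17 to 19 for these contrasts in NPC, 23 to 25 for NPC against ESC, and 8 to 12 and 8 to 11 for the dCD and MLL2dTAG interactions. Fitting only the groups compared left 7 and 12 copies tested in NPC, of which 5 were called for MLL2dTAG against WT and 11 for dCD against MLL2dTAG, and DESeq2 called 14 copies in the dCD interaction against 9. Families called in the dCD interaction numbered 2 to 5, with 2 when dCD NPC replicate 3 was left out, and the Tcstv value ran from -3.57 to 1.76. Without Pramef8 and Pramef12, chosen after seeing the data, the Pramef log2 change was 2.32 in dCD ESC, 0.20 in MLL2dTAG ESC, 1.70 in MLL2dTAG NPC, -1.20 for dCD against MLL2dTAG in NPC, and -1.82 and 1.502 in the dCD and MLL2dTAG interactions. Without the most abundant copy, Pramel was 1.01 in MLL2dTAG ESC and -1.01 for dCD against MLL2dTAG in ESC, and Pramef was 0.33 in MLL2dTAG NPC and 0.60 in the MLL2dTAG interaction. With upper-quartile scaling, Trim28 and Uhrf1 in MLL2dTAG NPC were -0.019 and -0.014. The causes were not tested beyond these constructions. Replicate numbers did not pair the libraries (18 same-number pairs, correlations of deviations -0.028 to 0.026, 3 of 18 libraries closest to their own number). With the replicate block, copies called were 25, 26, 25, 7, 16, 19, 22, 9 and 11 in the order above and families 6, 8, 8, 3, 6, 6, 7, 4 and 5, and the Tcstv change from ESC to NPC was -2.15 (adjusted p = 0.0657). Depth limits the precision for Tdpoz, Tcstv, Duxf3 and Zfp352 in NPC, where each group had at most 10 counts. Ratios with 1 library left out, added after seeing the data, are given beside each ratio that moved by over 1.5 times.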
